A study of Mus musculus with 6 samples.

Results

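The GATA factors are 6 transcription factors, Gata1 to Gata6, that bind DNA through zinc fingers and take their name from the letters they recognise. All 6 were measured, out of 19938 genes in all. They were taken by symbol from the array features that name exactly 1 gene. Each had 1 such feature, so picking the brightest feature of a gene left nothing to select. The family was selected on the Gata1 difference between narrow and wide cavities, which was known beforehand, and the other 5 members were chosen by name. The differences between cavities are therefore given as descriptions.

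Background on the family is as follows. Gata1, Gata2 and Gata3 are best known from blood and, for the latter pair, from trophoblast, where they act beside Cdx2, Tfap2c and Eomes. Gata4 and Gata6 specify the primitive endoderm and remain active in the visceral endoderm, the outer layer of the early post-implantation embryo, and Gata5 is known from endoderm and heart. GATA factors act with partner proteins, among them the FOG proteins Zfpm1 and Zfpm2 and the Tal1, Lmo2 and Ldb1 complex of blood cells.

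The embryos were of the CD1 strain, an outbred mouse stock, and carried no stated transgene or mutation. They were taken at embryonic day 5.0 and grown for 8 hours at the same temperature and CO2 level in a cavity of either 90 µm (narrow) or 180 µm (wide) diameter. Each of the 6 samples pooled 30 whole embryos, with 3 pools for each cavity. The series set embryos with external mechanical cues against embryos without them. Pools of whole embryos mix epiblast, extraembryonic ectoderm and visceral endoderm, and in such samples fewer cells of a type and less RNA per cell cannot be told apart.

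The values are log2 signals from an Affymetrix Mouse Gene 1.0 ST array, where a difference of 1 is a doubling. Array medians lay between 7.62 and 7.67, and no pair of arrays correlated below 0.998 over genes, which are not independent replicates. As a rough check of the labelled tissue, marker features were placed against the median signal of all genes. All 9 epiblast genes, all 25 measured primitive and visceral endoderm genes and 15 of 16 measured trophoblast genes lay above it, as did 4 of 16 measured erythroid genes and 3 of 11 measured maternal decidua and leukocyte genes. No background measure came with the values, so a dim gene could not be told from an absent one. A signal also depends on the probes of its feature, so this check orders no genes by level, and levels of single genes are compared only across pools.

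Gata1 was the member whose pools separated by cavity, and its promoter is shown for that reason. Beside it is the window richest in G and C of the 5 available. RefSeq (GRCm38.p6) gave 5 promoter windows for 4 members, Gata1, Gata2, Gata3 and Gata5, with none used here for Gata4 and Gata6. Each stretch is the 250 bases before a RefSeq start, written 5′ to 3′ on the strand of the gene, with the letters GATA in capitals where they occur. The Gata1 window is chrX:7967911-7968160 on the minus strand, and the second Gata2 window is chr6:88198414-88198663 on the plus strand.
Gata1: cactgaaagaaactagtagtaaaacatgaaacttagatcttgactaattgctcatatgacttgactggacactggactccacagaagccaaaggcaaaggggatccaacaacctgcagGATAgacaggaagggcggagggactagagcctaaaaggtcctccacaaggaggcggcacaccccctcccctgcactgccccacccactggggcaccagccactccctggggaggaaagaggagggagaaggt
Gata2: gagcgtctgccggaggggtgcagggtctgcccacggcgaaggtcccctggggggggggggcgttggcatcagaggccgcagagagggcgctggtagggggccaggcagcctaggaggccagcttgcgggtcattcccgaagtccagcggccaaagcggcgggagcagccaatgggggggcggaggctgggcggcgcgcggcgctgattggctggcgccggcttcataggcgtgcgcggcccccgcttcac
The 4 letters GATA, searched on both strands, occurred once in the Gata1 window, on the strand shown and beginning 132 bases before the start, and 0 times in the other 4 windows. They occurred in 53.6% of 32851 promoter windows of this length. The longer form, GATA with A or T before it and A or G after it, was searched on both strands as well. It was in 0 of the 5 windows and in 26.5% of all windows. G and C made up 54.0% of the Gata1 window, close to the median of 52.4% over all windows, against 67.2% and 74.0% in the 2 Gata2 windows and 70.0% in both the Gata3 and Gata5 windows.

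Gata1, the factor that drives red cell and megakaryocyte formation, had a higher signal in narrow than in wide cavities. Its signal was 8.56, 8.46 and 8.64 in narrow pools 1, 2 and 3 and 8.16, 8.25 and 8.36 in wide pools 1, 2 and 3. Every narrow pool lay above every wide pool, the gap between the lowest narrow and the highest wide pool being 0.092. The means were 8.55 ± 0.09 and 8.26 ± 0.10 (SD, n = 3 each), a difference of 0.29 ± 0.07 (SE of the limma fit), or 1.23-fold. Within same-numbered pools the difference was 0.40, 0.21 and 0.28 for numbers 1, 2 and 3. As the family was proposed from this contrast, the separation is a description and supports nothing further. The Gata1 feature lay at the 54.5th percentile of signal among all genes.

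**Figure D1:**
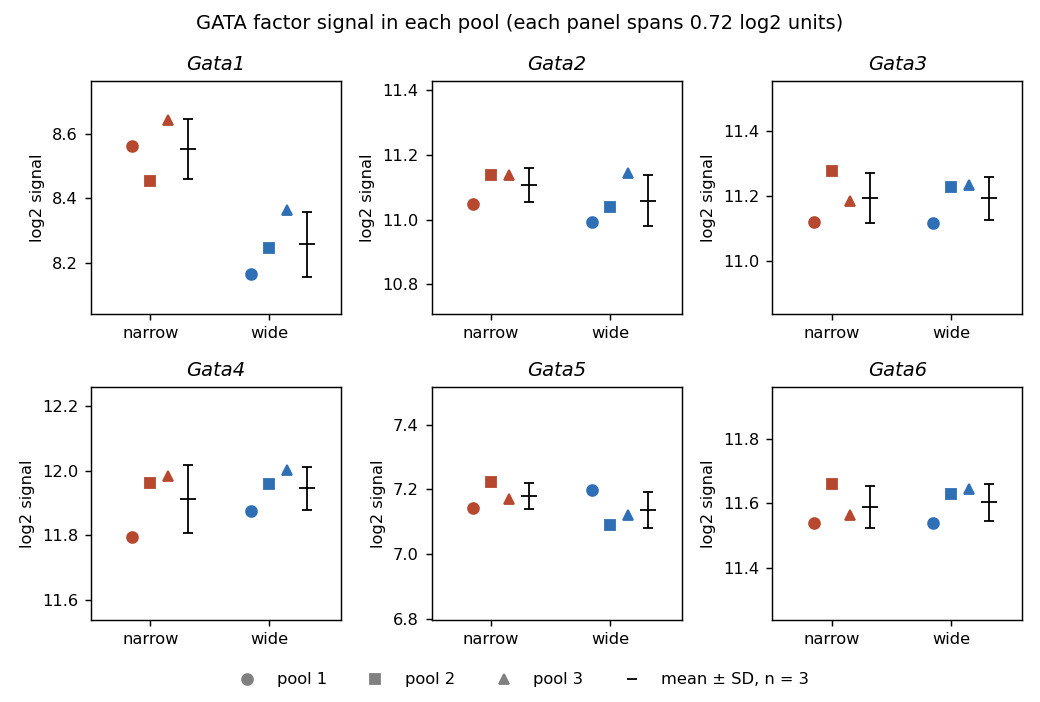
Log2 signal of Gata1 to Gata6 in each of the 6 pools, narrow (red) and wide (blue), with symbols for the replicate number and black bars for the mean ± SD (n = 3). All panels span the same height; the Gata1 pools do not overlap between cavities, from 8.46 to 8.64 in narrow and from 8.16 to 8.36 in wide, and the pools of the other 5 genes do.

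Gata2, which maintains blood progenitors and is also made in trophoblast, had signals of 11.047, 11.137 and 11.137 in narrow pools 1 to 3. In the wide pools it had 10.993, 11.038 and 11.145. The groups overlapped, since wide 3 was the highest of all 6 pools. The difference was 0.05 ± 0.05 (SE), with a 95% interval from -0.07 to 0.17.

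Gata3, a trophoblast factor later needed for T cells, had signals of 11.12, 11.28 and 11.18 in narrow pools 1 to 3 and 11.12, 11.23 and 11.24 in the wide ones. The means of 11.194 and 11.193 almost coincided, and the difference of 0.0008 ± 0.06 turned to -0.0021 under quantile normalization. Its 95% interval ran from -0.13 to 0.13.

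Among the endoderm members, Gata4 had signals of 11.79, 11.96 and 11.98 in narrow pools 1 to 3. Its wide pools had 11.875, 11.958 and 12.004. The groups overlapped throughout, and the difference was -0.03 ± 0.06 (95% interval -0.18 to 0.11). Without narrow 1, the lowest pool, it was 0.03, on the other side of 0.

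Gata6, which acts with Gata4 in primitive endoderm, had 11.54, 11.66 and 11.56 in narrow pools 1 to 3 and 11.54, 11.63 and 11.64 in wide ones. Both pools numbered 1 were the lowest of their cavity. The difference was -0.01 ± 0.05 (95% interval -0.13 to 0.10), and it was 0.01 without narrow 1 and 0.01 without wide 3.

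Gata5, the remaining endoderm member, lay below the median signal of all genes, at the 36.6th percentile. It had 7.14, 7.22 and 7.17 in narrow pools 1 to 3 and 7.20, 7.09 and 7.12 in wide ones. The groups overlapped, and the difference was 0.04 ± 0.05 (95% interval -0.06 to 0.15). Its antisense neighbour Gata5os had a difference of -0.06 ± 0.07.

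**Figure D2:**
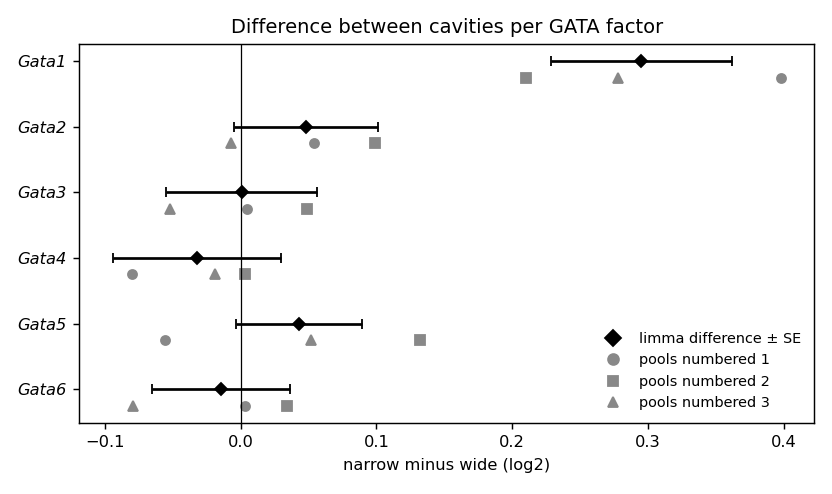
Narrow minus wide difference in log2 signal for each GATA factor. Diamonds are limma differences with their SE and grey symbols the difference within same-numbered pools; the Gata1 pairs run from 0.21 to 0.40, whereas each other gene has pairs on both sides of 0.

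By limma with Benjamini-Hochberg adjustment over all 19938 genes, 0 of the 6 members passed (adjusted p = 1.00 for each), where 0.00% of all genes did. Without adjustment 678 genes (3.40%) had a p under 0.05. A replicate block raised these to 1446 (7.25%) and called 0 genes after adjustment as well. With the block the adjusted p of Gata1 was 0.630 and those of the others lay between 0.830 and 0.999. All narrow pools lay above all wide pools for 1 of 6 members, Gata1, against 4.17% of all genes, and below them for 0 of 6, against 3.54%. The family had 4 positive and 2 negative differences, where 50.9% of all genes had a positive one. The family median was 0.022, and the median over all genes was 0.001. The family median changed sign without narrow 2 (-0.010) or without wide 1 (-0.011). For Gata2 to Gata6 alone the median was 0.0008 and no difference was larger than 0.05 in either direction, or 1.03-fold. Of all genes, 9 (0.0451%) had a higher difference than Gata1 and 19 a larger one in absolute size. As the family was proposed from this contrast, that rank supports nothing further.

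For Gata2, Gata3, Gata4 and Gata6 the pools numbered 1 stood further from the other pools than the cavities stood from each other. Both pools numbered 1 lay below the other 4 pools for Gata3, Gata4 and Gata6, 3 of 6 members, as they did for 19.9% of all genes. The mean of the pools numbered 1 stood 0.14 below that of the others for Gata4, 0.11 below for Gata3, 0.09 below for Gata2 and 0.09 below for Gata6. For Gata1 it stood 0.06 below, less than the difference between cavities, and for Gata5 0.02 above. In the limma F test between replicate numbers, with the cavity in the model, 0 of 6 members passed after adjustment over all genes, and 1 of 6, Gata4, had an unadjusted p under 0.05. The smallest adjusted p among them was 0.240, for Gata4. That test called 1 gene of 19938 (0.00502%), Gm773, named after its values were seen (adjusted p = 0.00612), and 3592 genes (18.0%) had an unadjusted p under 0.05. The number called depended on the settings. It was 696 of 9969 genes above the 50th percentile of signal and 1132 of 19938 with trended and robust moderation. Calls of the members under those settings are not given here. The labels do not say what a replicate number stands for.

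**Figure D3:**
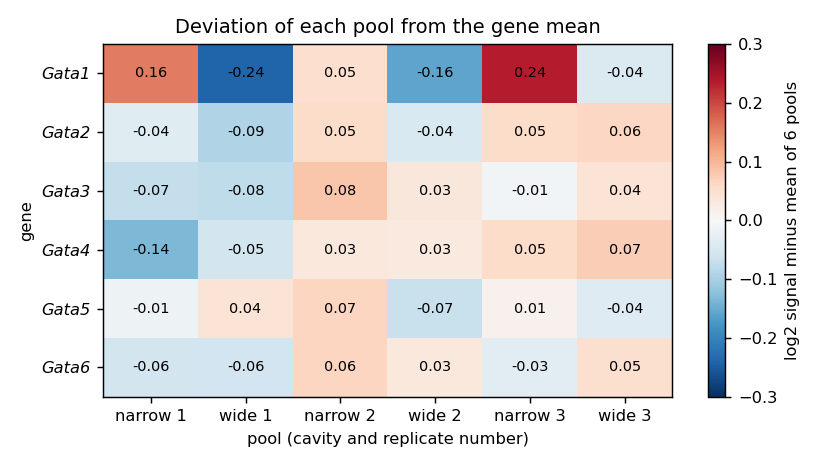
Log2 signal of each pool minus the mean of the 6 pools, for each GATA factor, with pools ordered by replicate number. Gata1 alternates between positive in narrow (0.05 to 0.24) and negative in wide pools (-0.24 to -0.04), while Gata2, Gata3, Gata4 and Gata6 are negative in both pools numbered 1.

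Signals of sex-linked genes were set beside Gata1, an X-linked gene, after its values had been seen. Xist, the RNA that coats the inactive X in females, had signals of 11.13, 10.52 and 11.04 in narrow pools 1 to 3 and 11.50, 11.03 and 11.06 in wide ones, a difference of -0.30 ± 0.18. All 3 measured Y-linked genes had positive differences, Uty at 0.15 ± 0.05, Eif2s3y at 0.13 ± 0.07 and Kdm5d at 0.10 ± 0.07. None of these 4 passed over all genes (limma adjusted p = 1.00). The narrow pools lay above the wide ones for Uty, from 8.52 to 8.68 against 8.38 to 8.46, as for 4.17% of all genes. Wide 1 had the highest Xist and the lowest Gata1 of the 6 pools, whereas narrow 2 had the lowest Xist, the highest signal of each Y-linked gene and the lowest Gata1 of the narrow pools. The part of these sex-linked signals in the Gata1 difference was not tested.

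The genes that lie next to Gata1 in the RefSeq gene order (GRCm38.p6) did not separate by cavity. On one side these were Hdac6, a deacetylase of tubulin, at 0.05 ± 0.06 and Eras, a Ras family gene of embryonic stem cells, at 0.15 ± 0.11. On the other side were Glod5 at 0.02 ± 0.12 and Was, an actin regulator of blood cells, at 0.05 ± 0.07. Over the 4 nearest measured neighbours of each member, 24 genes in all, the narrow pools lay above the wide ones for 0, against 4.17% of all genes. They lay below them for 1, Fam167a near Gata4 at -0.13 ± 0.05, against 3.54% of all genes.

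Here and in the lists below, a gene rose or fell if it passed limma after adjustment. Since 0.00% of all genes passed, a 0 is no trait of a list. Of all genes, 50.9% had a positive difference. Of 25 partners and cofactors, all measured, 0 rose and 0 fell, with 10 positive differences and a median of -0.029. Zfpm1, the FOG protein that binds Gata1 in blood, had a difference of -0.04 ± 0.04, and Zfpm2, its relative in the heart, one of -0.02 ± 0.06. Tal1, the DNA-binding partner of Gata1 in red cells, was 7.61, 7.60 and 7.66 in narrow pools 1 to 3 and 7.70, 7.64 and 7.88 in wide ones. Its difference of -0.12 ± 0.07 had the opposite sign to that of Gata1, and its groups overlapped. Lmo2, the adaptor of the same complex, stood at 0.05 ± 0.05 and Runx1, a regulator of blood stem cells, at -0.08 ± 0.05.

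Of 16 measured erythroid genes, out of 23 listed, 0 rose and 0 fell, where 0.00% of all genes did either. Differences were positive for 7, and the median was -0.015. Alas2, the first enzyme of haem synthesis in red cells, had 6.80, 6.90 and 6.87 in narrow pools 1 to 3 and 6.89, 6.79 and 6.91 in wide ones, which overlapped (-0.01 ± 0.05). The erythropoietin receptor gene Epor stood at -0.02 ± 0.06. The embryonic globin genes had negative differences, Hbb-bh1 at -0.04 ± 0.05, Hbb-y at -0.08 ± 0.04 and Hba-x at -0.20 ± 0.10. Their signals were below the median of all genes, at percentiles 6.1, 18.4 and 41, so they may be absent rather than dim. Within same-numbered pools Hba-x differed by -0.07, -0.06 and -0.47 for numbers 1, 2 and 3. The 7 positive genes, against 9 negative ones, included Hemgn (0.10 ± 0.06), Epb42 (0.06 ± 0.06) and Ank1 (0.06 ± 0.04). The list thus ran in both directions. The mean signal of the erythroid list was 7.41 to 7.43 in narrow and 7.39 to 7.46 in wide pools, which overlapped.

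Of 12 measured megakaryocyte and mast cell genes, out of 16 listed, 0 rose and 0 fell, with 3 positive differences and a median of -0.026. Only 2 of the 12 lay above the median signal of all genes. The platelet factor gene Pf4 stood at -0.07 ± 0.06, the integrin gene Itga2b at -0.02 ± 0.04, and the platelet glycoprotein genes Gp9 and Gp5 at -0.06 ± 0.04 and -0.03 ± 0.05. The mast cell genes Hdc, which makes histamine, and Tpsb2, a tryptase, stood at -0.11 ± 0.06 and 0.06 ± 0.04. The mean signal of this list was 6.75 to 6.81 in narrow and 6.78 to 6.82 in wide pools.

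All 12 endothelial genes were measured, 0 rose and 0 fell, and the median difference was 0.017. Kdr, a VEGF receptor, had a difference of 0.08 ± 0.08, the cadherin gene Cdh5 one of 0.03 ± 0.05 and Tek, an angiopoietin receptor, one of -0.05 ± 0.04. The adhesion genes Pecam1 and Esam had differences of 0.08 ± 0.05 and 0.11 ± 0.06.

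Of 25 measured primitive and visceral endoderm genes, out of 26 listed, 0 rose and 0 fell, with 13 positive differences and a median of 0.003. Sox17, a factor that acts downstream of Gata6 in primitive endoderm, stood at 0.06 ± 0.06. Hnf4a, a main regulator of visceral endoderm, stood at -0.06 ± 0.04, the receptor gene Pdgfra at 0.01 ± 0.05 and the endocytic adaptor gene Dab2 at -0.02 ± 0.04. Trf, which encodes transferrin, was 11.15, 11.10 and 11.10 in narrow pools 1 to 3 and 11.01, 10.87 and 10.94 in wide ones. The difference was 0.18 ± 0.05, and it did not pass over all genes (limma adjusted p = 1.00). The signalling gene Bmp2 had a difference of 0.14 ± 0.06.

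Of 16 measured trophoblast genes, out of 20 listed, 0 rose and 0 fell, with 8 positive differences and a median of 0.015. Among the factors that act with Gata2 and Gata3, Cdx2 had a difference of -0.10 ± 0.06, Tfap2c one of 0.09 ± 0.05 and Elf5 one of 0.04 ± 0.04. Hand1, a factor of trophoblast giant cells, stood at 0.04 ± 0.05. The ligand gene Bmp4, made in extraembryonic ectoderm, was 11.68, 11.70 and 11.48 in narrow pools 1 to 3 and 11.87, 11.91 and 11.70 in wide ones, a difference of -0.21 ± 0.08. Narrow 2 and wide 3 were both at 11.70, and the gene did not pass (limma adjusted p = 1.00).

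Of 13 heart and gut genes, all measured, 0 rose and 0 fell, and the median difference was 0.002. Only 3 of the 13 lay above the median signal of all genes. The natriuretic peptide genes Nppa and Nppb, known Gata4 targets in heart muscle, stood at -0.10 ± 0.08 and 0.09 ± 0.15. The myosin genes Myh6 and Myh7 had differences of 0.02 ± 0.05 and -0.12 ± 0.06, and the troponin gene Tnnt2 one of -0.05 ± 0.04. The other genes with GATA-type zinc fingers, 9 measured, had a median of 0.004 with 0 that rose or fell. They included the repressor Trps1 (0.05 ± 0.07), Gatad1 (0.03 ± 0.04), the chromatin remodelling subunits Gatad2a (-0.004 ± 0.05) and Gatad2b (0.03 ± 0.04), and Zglp1 (-0.09 ± 0.08).

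Among the 9 epiblast genes 0 rose and 0 fell, with 7 negative differences and a median of -0.023. The pluripotency gene Pou5f1 stood at -0.02 ± 0.04, the growth factor gene Fgf5 at 0.04 ± 0.05, the methyltransferase gene Dnmt3b at -0.03 ± 0.05 and Otx2 at 0.03 ± 0.11. Nanog and Sox2 stood at -0.16 ± 0.09 and -0.09 ± 0.05. Of 11 measured genes of maternal decidua and leukocytes 0 rose and 0 fell, with a median of 0.021. The leukocyte gene Ptprc was at -0.04 ± 0.05, the stromal genes Dcn and Col1a1 at 0.12 ± 0.09 and -0.06 ± 0.06, and the decidual gene Prl8a2 at -0.08 ± 0.06. Lyz2, a macrophage gene, was high in wide 3 alone at 7.51, with the other pools between 6.05 and 6.58 and a difference of -0.41 ± 0.32. The mean signal of this list was 7.21 to 7.27 in narrow and 7.21 to 7.37 in wide pools, and its part in the Gata1 difference was not tested.

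**Figure D4:**
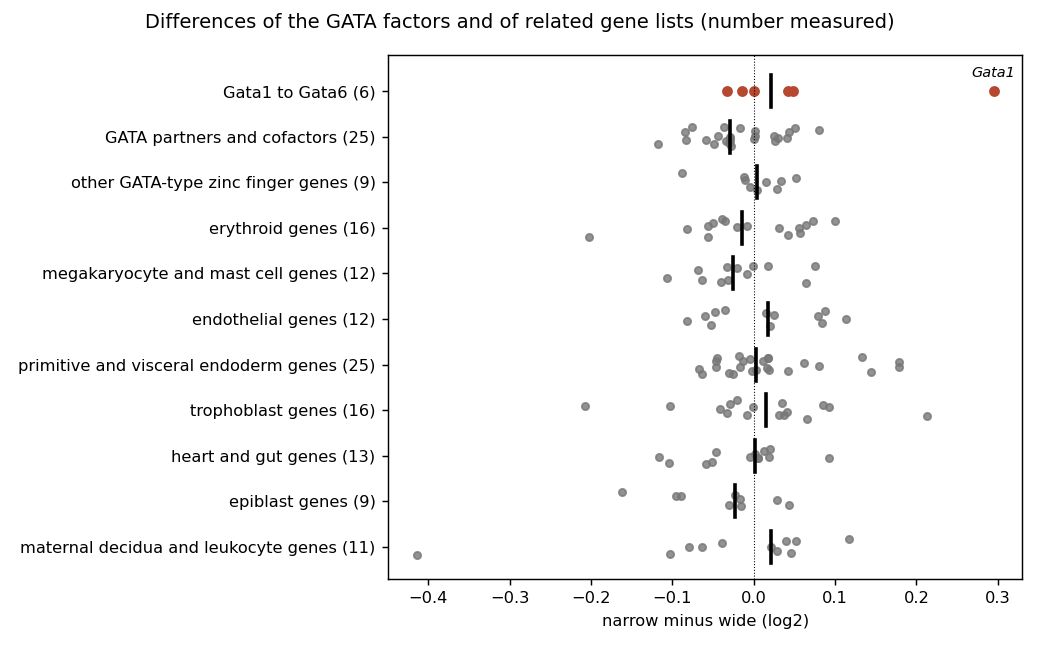
Narrow minus wide difference in log2 signal for Gata1 to Gata6 (red) and for the measured genes of 10 lists (grey), with the median of each list as a black bar. Gata1, at 0.29, lies to the right of every listed gene, and the list medians lie between -0.029 and 0.021.

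Across the 10 lists, 148 of 165 genes were measured. By limma 0 of these passed over all genes, as 0.00% of all genes did, whether or not the number entered as a block. All narrow pools lay above all wide pools for 6 of the 148 (4.05%), close to the 4.17% of all genes: Gatad1, the red cell ankyrin gene Ank1, Tpsb2, Bmp2, Trf and Tfap2c. They lay below for 5 (3.38%, against 3.54% of all genes), namely Ldb1, Hbb-y, Hnf4a, Bmp4 and Sox2. For Bmp4 narrow 2 and wide 3 were both 11.703 and differed only in later digits. The only listed gene with a larger difference than Gata1 in absolute size was Lyz2.

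Genes with the pattern most like that of each member were found by Pearson's r over the 6 pools and are given as a description. With 6 pools a high r is common, and 121 genes exceeded 0.9 for Gata1, 105 for Gata5 and 393 to 852 for the others. The closest to Gata1 were the semaphorin gene Sema6d (0.990), the mitochondrial ribosomal gene Mrps9 (0.975) and Bmyc (0.974). Sema6d was 8.24, 8.21 and 8.34 in narrow pools 1 to 3 and 8.01, 8.07 and 8.15 in wide ones (0.18 ± 0.06). Its narrow pools lay above its wide ones, as for 4.17% of all genes. It was picked for its likeness to Gata1 in these pools, so this is no separate result. Gata4 was followed most closely by the FGF receptor gene Fgfr1 (0.998), then Xcr1 (0.997) and Zfp687 (0.996). For Gata6 these were Ly6g6c (0.996), Dlgap2 (0.995) and Mptx1 (0.994), and for Gata3 Dear1 (0.993), Gpr62 (0.992) and the cell polarity gene Llgl2 (0.988). Xcr1 (5.96 to 6.43), Mptx1 (5.24 to 5.69) and Dear1 (5.655 to 5.742) were dim. Like Gata3, Gata4 and Gata6, the genes named for them were lowest in both pools numbered 1, as were 19.9% of all genes. Gata2 was matched by Gcc1 (0.992), the MAP kinase phosphatase gene Dusp9 (0.991) and the ubiquitin ligase gene Wwp2 (0.990), and Gata5 by Gprc5b (0.989), Sntg2 (0.984) and Naalad2 (0.983).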

How the data were processed

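The deposited table held log2 signals; that scale was read from their range, 4.33 to 14.31. The arrays had near-equal medians, and the values were used without further scaling; the sources used here name no normalization method. Per the labels' protocols, total RNA of pooled embryos was labelled with biotin.

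Of 28853 features, 21789 named 1 gene, covering 19938 genes; for genes with several, the feature with the highest mean was used. Differences (narrow minus wide) were fitted with limma 3.58.1 in R 4.3.3 (lmFit and eBayes, two-sided, no covariate, no filter) and adjusted by Benjamini-Hochberg over all genes at 0.05. The code of the fit was tested on simulated data with independent pools. That simulation left out the likeness of same-numbered pools, so it does not show how the fit behaves with it. The design text calls the pools biological replicates; their number limits the precision.

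Deviations from group means correlated at 0.516, 0.176 and 0.272 between same-numbered pools, all above 0.1. The labels state no pairing, so the main fit, with its SEs and intervals, had no block. A fit with the number as a block was run beside it. The 0.176 of number 2 was below the 0.178 of narrow 2 with wide 3.

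Members and lists were chosen with earlier results of these data known. Named genes were all members, the first 4 measured genes of each list, any that passed and the 2 with the smallest p, and the 3 with the highest r to each member, without predicted, small RNA, olfactory or vomeronasal genes. The sex-linked genes, the neighbours, the erythroid genes Hemgn and Epb42 and the listed genes whose pools did not overlap were added after values were seen. Alternatives left out each pool or the pools numbered 1, changed normalization, signal filter, feature choice and moderation, or added the block.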

Additional observations from a re-analysis of the deposited data

How the results depend on the processing

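Under all 13 alternatives limma called 0 genes between cavities after adjustment, with 384 (only genes brighter than the 50th percentile, fewer of which were tested) to 1446 (replicate number as a block) at an unadjusted p under 0.05. The Gata1 difference ran from 0.24 to 0.35 over the 13, with an adjusted p of 0.630 or more. Its sign could not change when pools were left out, since every narrow pool lay above every wide pool. The block, signal filter, feature choice and moderation leave the difference of any member kept as it was, each having 1 feature. Only leaving out pools and quantile normalization could move it. Gata2 stayed positive in 13 of 13 and Gata5 in 12 of 12, as the signal filter removed Gata5, but they moved by over 1.5 times in 3 and 4 of these, from 0.016 (without wide 1) to 0.092 (without wide 3) for Gata2 and from 0.020 (without wide 2) to 0.092 (pools numbered 2 and 3 only) for Gata5. Uncalled differences of Gata3, Gata4 and Gata6 changed sign in 4, 1 and 2. The family median ran from -0.011 to 0.049 when each pool was left out and was 0.0008 above the 50th percentile of signal. The replicate block changed no call. Between replicate numbers, the 1 gene called became 696 above the 50th percentile of signal, 1132 with trended and robust moderation and 0 to 6 when each pool was left out, an alternative chosen after seeing the data; the cause was not tested.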
